A study of Homo sapiens with 14 samples.

Results

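The comparison covers the accessible sites on which 2 short hairpins against the same gene, KDM4B, differed in RH30 cells. ATAC-seq, which marks open DNA by where the Tn5 transposase inserts sequencing adapters, was run on 14 libraries of 2 human muscle-lineage lines. RH30 is an alveolar rhabdomyosarcoma line that carries its own PAX3-FOXO1 fusion gene. RH30 was transduced for 72 h with shKDM4B-813 or shKDM4B-814, 2 libraries each, and these 4 peak lists form the comparison; no control library entered it. The other 10 libraries were RH30 with a control hairpin (shCtrl, 72 h), with 0.1% DMSO or with 200 nM of the KDM4 inhibitor QC6352 (72 h), and LHCN, an immortalised myoblast line, with empty vector or PAX3-FOXO1 for 72 h, again 2 each. Every list of the 4 was trimmed to its 93488 strongest peaks, the length of the shortest, and peaks sharing 1 bp or more were merged. Of 143903 merged regions, 8748 had a peak in both libraries labelled shKDM4B-813 and in neither labelled shKDM4B-814. A further 4887 had the reverse, so 13635 regions in all are described here. The union of all 14 lists at the same length holds 243368 regions.

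The labels of these libraries are in doubt. Inside the deposited lists every peak carries a library name, and in the 6 hairpin lists that name does not match the label. The lists labelled shKDM4B-813 hold peaks named sh814, those labelled shKDM4B-814 hold peaks named shCtrl, and those labelled shCtrl hold peaks named sh813. In the other 8 lists name and label match. The lists alone cannot tell which is right, so the labels are kept and every library below is called by its label. If the peak names were right, the same 4 lists would compare sh814 with the control hairpin, and each direction below would be read that way. As a measured fact beside this, the libraries labelled shKDM4B-814 resembled the DMSO libraries most of the 3 hairpin groups. Over regions merged from all 14 lists, their mean Jaccard index (shared over total regions) with DMSO was 0.571 over 4 library pairs, ranging from 0.549 to 0.597. The index with DMSO was 0.530 for the libraries labelled shKDM4B-813 and 0.447 for those labelled shCtrl, and none of the 3 ranges overlapped.

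KDM4B removes methyl groups from lysine 9 of histone H3, a mark of closed chromatin, and also acts on lysine 36. Loss of the enzyme can leave that mark in place, and ATAC-seq reads which sites are open. A hairpin can also act on transcripts other than its target, which is why a pair of hairpins is used and sites where they differ are set apart from sites they share. The peak lists do not measure KDM4B itself, and the degree of knockdown was not analysed here.

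The 4 deposited lists differed in length. Those labelled shKDM4B-813 held 140342 and 138884 peaks, and those labelled shKDM4B-814 held 99660 and 93488. Trimming therefore removed many weak peaks from the former and few or none from the latter. The last peak kept had a −log10 q of 7.11 and 6.17 in the lists labelled shKDM4B-813 and of 4.81 and 2.21 in those labelled shKDM4B-814. In the 3 trimmed lists the strongest peak dropped had the same value as the last one kept. A region absent from a trimmed shKDM4B-813-labelled list may thus still hold a weaker deposited peak. Sequencing depth is unknown from these lists. The names of all 14 carry the same tag for sampling, which may mean that reads were drawn to 1 number per library, but what was sampled is not stated. Nothing in the labels says whether replicates were separate cultures, so spread between them may be technical.

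A peak in all 4 lists was the most frequent pattern, at 52009 regions (36.1%). Regions only with the label shKDM4B-813 made up 6.08% of the total and those only with shKDM4B-814 made up 3.4%, together 9.48%. These shares are set by the rule itself and are given as a description. Regions seen in a single library were more frequent than either, from 11293 for the second shKDM4B-813-labelled library to 16436 for the second shKDM4B-814-labelled library. Mixed pairs, with a peak in 1 library of each label and no other, were rarer, at 1738 to 3080 regions.

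**Figure D1:**
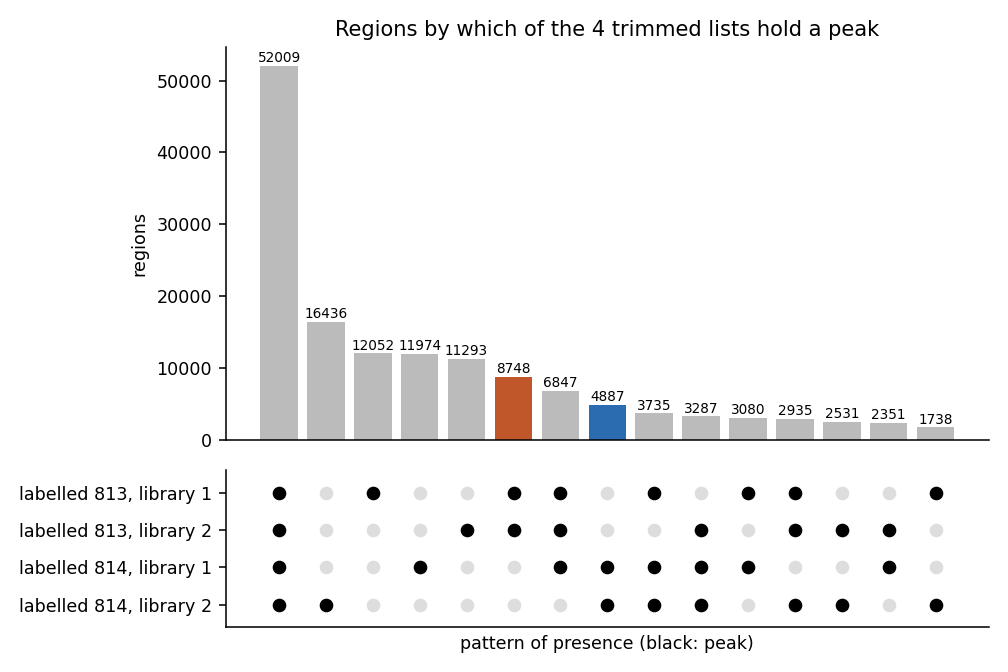
Bars give the number of merged regions (y axis) for each combination of the 4 trimmed lists that hold a peak (black points below the bar). The orange bar (8748) is the set only with the label shKDM4B-813 and the blue bar (4887) the set only with the label shKDM4B-814; the tallest bar, 52009, holds the regions in all 4 lists.

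The libraries labelled shKDM4B-814 were less alike than those labelled shKDM4B-813. The Jaccard index was 0.638 between the shKDM4B-813-labelled libraries and 0.572 between the shKDM4B-814-labelled libraries. The first shKDM4B-814-labelled library shared more with the first shKDM4B-813-labelled library (0.578) than with its own partner. Across labels the index ran from 0.511 to 0.578. On average it was 0.605 within and 0.544 between labels, a gap of 0.0607, and neither of the other ways to pair the 4 libraries gave a gap above -0.0228. With 3 pairings the smallest p is 0.333, which is also the value obtained (exact permutation test, one-sided). Leaving out a library loosens the rule, and the counts moved accordingly. Without the first or second shKDM4B-813-labelled library, 20438 or 21019 regions were only with shKDM4B-813 and 8785 or 8429 only with shKDM4B-814. Without the first shKDM4B-814-labelled library the counts were 15650 and 21607, and without the second 12767 and 19191, so the order of the directions turned. In the lists as deposited they were 19022 and 1999.

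Most differing regions were weak and narrow. A within-list percentile, 100 for the strongest peak of a trimmed list, was taken for the weaker of the 2 libraries that define each region. Its median was 21.5 for regions only with shKDM4B-813 and 17.2 for those only with shKDM4B-814, against 57.1 over all 4 libraries for the shared regions. The interquartile ranges were 9.93 to 36.5 and 7.68 to 30.9. Only 902 regions (10.3%) of the former and 265 (5.42%) of the latter reached a percentile of 50 in both libraries, and none reached 90. The median authors' fold value over background was 7.70 and 6.56 in the shKDM4B-813-labelled libraries at their own regions, and 5.79 and 5.58 in the shKDM4B-814-labelled libraries at theirs. Median widths were 309 bp and 337 bp, against 584 bp for shared regions. A shared region merges peaks of all 4 lists and a differing region those of 2, so part of this gap is set by the merging.

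The directions differed in what lay beneath the trimming limit. Of the regions only with shKDM4B-813, 8490 (97.1%) had no peak in either deposited list labelled shKDM4B-814. Of the regions only with shKDM4B-814, 1738 (35.6%) had no peak in either deposited shKDM4B-813-labelled list, 1924 (39.4%) had a weaker peak in 1 of them and 1225 (25.1%) in both. The trimming itself sets part of this contrast, since it hardly shortened the shKDM4B-814-labelled lists. Under a stricter rule, a peak among the 50000 strongest in both libraries of one label and no deposited peak under the opposing label, 1131 regions remained for shKDM4B-813 and 133 for shKDM4B-814.

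None of the 10 strongest regions only with shKDM4B-813 had a peak of any strength in the deposited shKDM4B-814-labelled lists. The rule nearly fixes this, since trimming hardly shortened those lists. No annotation of the build was used, so no gene is assigned. The leading region lay on chromosome 15 from 47676510 to 47676905 (hg19), with authors' fold values of 23.9 and 20.1 in the shKDM4B-813-labelled libraries. No other RH30 list held a peak there, while the PAX3-FOXO1 libraries of LHCN did, at 9.30 and 11.4.

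The next, on chromosome 2 from 57208577 to 57209013, had fold values of 29.6 and 17.6 and no peak in any other RH30 list. On chromosome 7, from 115258577 to 115259069, the values were 23.5 and 17.2. All 4 LHCN lists held that chromosome 7 site, at 42.2 and 43.7 with vector and 23.2 in each PAX3-FOXO1 library, whereas no other RH30 list did.

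A region on chromosome 3 from 41012825 to 41013565 had fold values of 19.9 and 14.8 with the label shKDM4B-813. It was strong in LHCN, at 82.4 and 71.2 with vector and 43.4 and 47.5 with PAX3-FOXO1, and weak with DMSO, at 4.65 and 5.41. On chromosome 4, from 14784504 to 14784882, the values were 29.2 and 15.6, all 4 LHCN lists held a peak at 18.7 to 24.6, both QC6352 lists held a weaker one at 5.10 and 8.07, and so did 1 list labelled shCtrl, at 5.14. Across the 10 leading regions of this direction the fold ran from 14.8 to 29.6. In trimmed lists, 7 of the 10 had no peak in either DMSO library, 7 had none in either library labelled shCtrl, and 4 had none in any other RH30 library. In LHCN, 3 of the 10 had a peak in all 4 trimmed lists, all of them given above, and 3 had none.

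The strongest regions only with shKDM4B-814 were of another kind: all 10 had a peak in both DMSO libraries and 9 had one in both libraries labelled shCtrl. The leading region lay on chromosome 5 from 139719243 to 139719794, at authors' fold values of 16.2 and 14.2 in the shKDM4B-814-labelled libraries. Weaker peaks of 5.67 and 4.92 stood in the deposited shKDM4B-813-labelled lists. The DMSO lists gave 24.2 and 25.3 there, the lists labelled shCtrl 12.3 and 11.7, and neither QC6352 list held a peak.

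On chromosome 10 from 62677046 to 62677386 the shKDM4B-814-labelled values were 15.1 and 15.9, with no deposited peak under the label shKDM4B-813. This was the only leading region of its direction without such a weaker peak. DMSO lists held it at 13.6 and 14.2, and neither QC6352 list did. On chromosome 11, from 102299427 to 102299837, values of 15.1 and 14.2 with the label shKDM4B-814 stood against weaker peaks of 5.27 and 5.33 with the label shKDM4B-813. Over the 10 leading regions the shKDM4B-814-labelled fold ran from 10.3 to 17.0. The regions given above lacked a QC6352 peak, but others of the 10 held one in 1 or both QC6352 lists. On chromosome 1, from 228072847 to 228073196, both lists did, at 8.73 and 7.36. From 165827472 to 165827955 on that chromosome the values were 7.28 and 8.07.

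**Figure D2:**
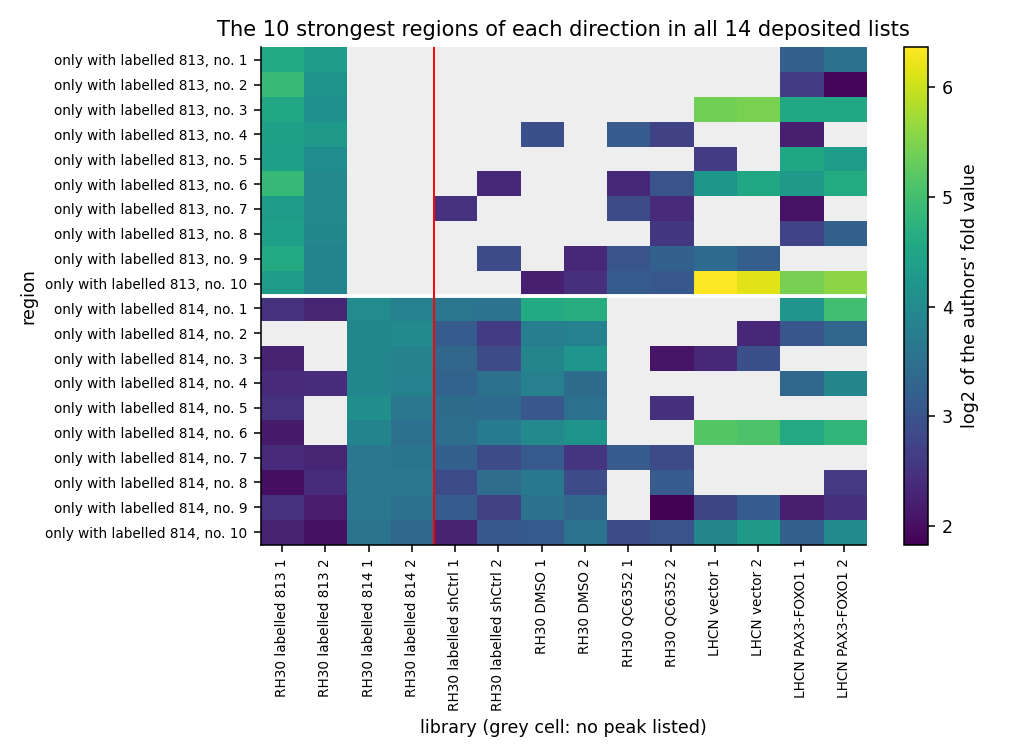
Each row is one of the 10 strongest regions of either direction and each column a deposited list; colour is log2 of the authors' fold value, which is each list's own scale, and grey means no peak was listed. The red line parts the 4 compared lists from the other 10. In the lower block 9 of 10 rows show a weaker peak with the label shKDM4B-813, and all 10 show peaks with DMSO. In the upper block no row shows a peak with the label shKDM4B-814. Trimming hardly shortened the lists labelled shKDM4B-814, so the rule nearly fixes those empty cells and the blocks are not an even comparison.

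Libraries that took no part in the rule separated the directions. Here every list was cut to the same 93488 peaks. Regions only with shKDM4B-813 had a peak in 9.61% and 10.0% of cases in the libraries labelled shCtrl, and in 23.1% and 23.6% with DMSO. Regions only with shKDM4B-814 had one in 47.3% and 49.5% with shCtrl and in 57.5% and 55.9% with DMSO. With QC6352 the directions lay closer, at 30.5% and 33.9% against 32.5% and 42.6%. In LHCN the order turned: 37.4% to 42.0% of the former against 20.9% to 25.2% of the latter had a peak. That order in LHCN was lost with the 50000 strongest peaks, at 29.6% and 31.0% with vector and 33.5% and 34.6% with PAX3-FOXO1. It was also lost without the first shKDM4B-813-labelled library, at 26.2% and 31.4% with vector and 27.8% and 36.3% with PAX3-FOXO1. For orientation, regions in all 4 lists had a peak in 81.9% of cases with shCtrl, 92.6% to 94.2% with DMSO and 66.9% to 75.1% in LHCN.

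Regions only with shKDM4B-813 were therefore open more often in the LHCN libraries, all of a single myoblast line, than in the other RH30 libraries. The mean share was 39.5% over 4 LHCN and 21.8% over 6 RH30 libraries, with no overlap (exact permutation test over libraries, two-sided, p = 0.00952). Regions only with shKDM4B-814 had the opposite order, 22.9% in LHCN and 47.6% in RH30, again with no overlap (exact permutation test, two-sided, p = 0.00952). Adjusted over these 2 tests the value stays at 0.00952. Regions in all 4 lists also had a peak more often in RH30, at 81.9% to 94.2%, than in LHCN, at 66.9% to 75.1%. The second order is thus not particular to regions only with shKDM4B-814. The test treats the 10 libraries as exchangeable although they come in 5 pairs. Exchanging pairs instead of libraries could not give a p under 0.05. For regions only with shKDM4B-813 the RH30 mean pools 9.83% with the label shCtrl, 23.4% with DMSO and 32.2% with QC6352. Libraries labelled shCtrl or treated with DMSO, at 23.6% or less, also lay apart from QC6352 and LHCN together, at 30.5% or more. The test therefore does not single out the cell line. With the 50000 strongest peaks the first difference (LHCN minus RH30, regions only with shKDM4B-813) was 10.98 percentage points (exact permutation p = 0.114). Without the first shKDM4B-813-labelled library it was 2.41 percentage points (exact permutation p = 0.433), and without the first shKDM4B-814-labelled library 13.1 points (exact permutation p = 0.0667). The second difference did not pass in the lists as deposited, at -13.0 points (exact permutation p = 0.0810). It turned at a −log10 q of 10 or more, to 5.95 points (exact permutation p = 0.552), and for strong against absent peaks, to 0.376 points (exact permutation p = 0.976).

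**Figure D3:**
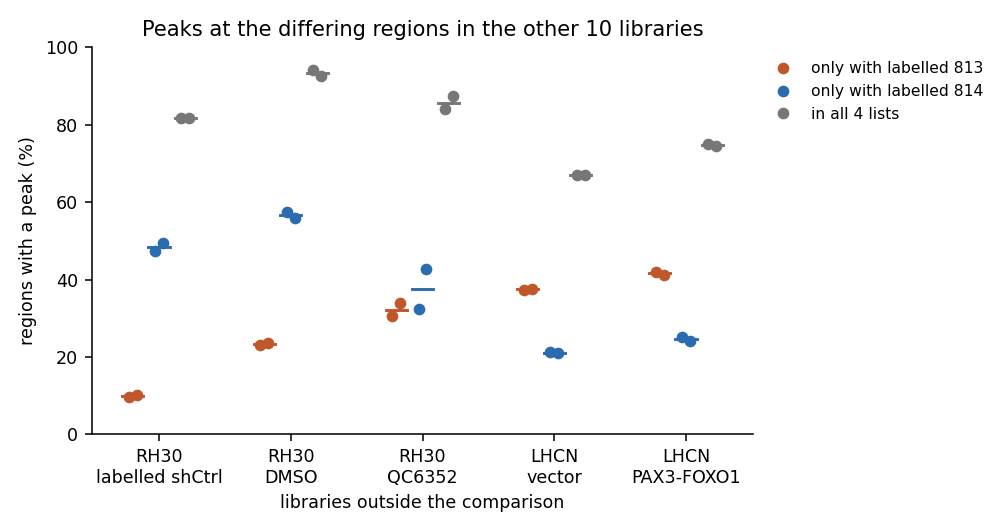
Each point is a library outside the comparison and its height the percentage of regions in a class with a peak there; short lines are means of 2 libraries. Blue lies above orange in the RH30 libraries labelled shCtrl and with DMSO and below it in LHCN, and the orange and blue points overlap with QC6352.

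The split by control state was as uneven. Of the regions only with shKDM4B-813, 5574 (63.7%) had no peak in any of the 4 libraries labelled shCtrl or treated with DMSO, and 197 (2.25%) had a peak in all 4. Of those only with shKDM4B-814, 720 (14.7%) had none and 873 (17.9%) had all 4. Looking at all 10 outside libraries, 2288 regions (26.2%) only with shKDM4B-813 had no peak in any, against 480 (9.82%) only with shKDM4B-814. In all 4 LHCN lists, 2553 (29.2%) and 799 (16.3%) had a peak.

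Outside QC6352 the contrast held in bands of equal within-list percentile, described with no test. An equal percentile is not an equal strength, since the weakest peak kept was stronger in the lists labelled shKDM4B-813. Between percentiles 0 and 25, 10.1% ± 0.196 (SD, n = 2) of regions only with shKDM4B-813 had a peak with the label shCtrl, and 22.8% ± 0.869 with DMSO. For regions only with shKDM4B-814 in that band the values were 49.0% ± 0.702 and 48.6% ± 0.680. Between 50 and 75 the DMSO share was 21.4% ± 2.23 for 856 regions of the former and 87.6% ± 2.73 for 259 of the latter. With vector in LHCN that upper band gave 41.3% ± 0.0826 and 32.2% ± 1.37, nearer each other than the 35.2% ± 0.448 and 16.4% ± 0.175 of the lowest band. Thus the share of regions only with shKDM4B-814 also open with DMSO rose with percentile. That of regions only with shKDM4B-813 did not. The rise was not particular to the former, since regions in all 4 lists went from 81.5% through 89.6% to 97.2% with DMSO. With the label shCtrl the regions only with shKDM4B-814 gave 49.0%, 43.9% and 64.7%, so no steady rise. With QC6352 the upper band gave 40.1% ± 5.70 for regions only with shKDM4B-813 and 42.7% ± 0.819 for those only with shKDM4B-814.

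Both directions occurred on every chromosome, in shares that differed between chromosomes. Among 23 chromosomes with at least 500 regions, the share only with shKDM4B-813 was highest on chromosomes 4 (8.79%), 3 (8.77%) and 13 (8.50%), and lowest on 19 (2.94%), 22 (3.12%) and 17 (3.27%). The share only with shKDM4B-814 was highest on 20 (5.60%), 17 (4.98%) and 11 (4.61%), and lowest on 3 (1.91%), 4 (2.23%) and X (2.31%). As background, chromosomes 19, 17 and 22 are rich in genes, and 4 and 13 are poor in them. On chromosome 3 there were 598 regions of the former and 130 of the latter, and on chromosome 17 there were 278 and 423. Across the 23 chromosomes Pearson's r between the shares was -0.80 and Spearman's rho -0.79; both shares come from the same regions and lists, so this is a description. The shKDM4B-814-labelled regions outnumbered the others on 5 chromosomes (16, 17, 19, 20 and 22).

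**Figure D4:**
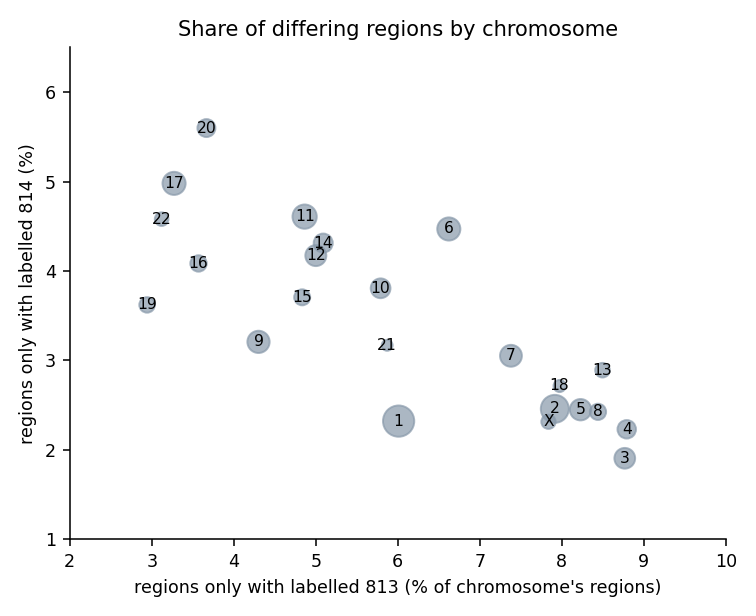
Each circle is a chromosome, its area scaled to the number of regions; the x axis gives the percentage of its regions only with the label shKDM4B-813 and the y axis the percentage only with the label shKDM4B-814. Chromosomes 3 and 4 lie at lower right and 17, 20 and 22 at upper left.

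Regions only with shKDM4B-814 took a larger share of the windows rich in RH30 peaks, although most lay elsewhere. In 161 windows of 1 Mb the 6 other RH30 lists averaged at least 3 times as many peaks as the LHCN lists; this limit was chosen after seeing the data. They held 15.8% of all regions, 26.6% of those only with shKDM4B-814 and 6.18% of those only with shKDM4B-813; the other windows with at least 20 regions held 71.2% and 85.2% of these. There 5.74% of regions were only with shKDM4B-814 and 2.38% only with shKDM4B-813, against 3.02% and 6.48% in the other windows with at least 20 regions. The share of each trimmed list that fell in those windows was 10.0% and 14.7% with the label shKDM4B-813 and 15.6% and 17.9% with the label shKDM4B-814. It was 13.2% and 13.3% with DMSO and 22.0% and 20.9% with the label shCtrl. Without these windows 8207 and 3585 regions were left, and LHCN minus RH30 was 20.1 and -16.9 percentage points (exact permutation p = 0.00952 and 0.0429). The windows were picked by peak counts in these same LHCN and RH30 libraries. Leaving them out tends to raise the signed value of LHCN minus RH30 by the choice itself, so the values are no independent check. With all windows kept, LHCN minus RH30 was 17.7 and -24.7 points, so the first gap grew and the second shrank.

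The windows with the most regions only with shKDM4B-814 were picked by count. On chromosome 6 the window from 72000001 to 73000000 held 61 of them and 9 of the other direction among 509 regions. Its peaks numbered 395 and 362 with the label shKDM4B-814, 253 and 269 with the label shKDM4B-813, 359 and 305 with DMSO, 167 and 157 with the label shCtrl, and 30 to 36 in LHCN. The shKDM4B-814-labelled libraries were thus the 2 highest of the 14 there, and the lists labelled shCtrl were among the lowest 3 of RH30, with 1 QC6352 library at 159. The next window, to 74000000, held 57 and 6 among 480.

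On chromosome 11, 45 and 3 regions among 320 lay between 78000001 and 79000000. Peaks there numbered 183 and 233 with the label shKDM4B-814 and 77 and 84 with the label shKDM4B-813, the lowest of the RH30 lists. On chromosome 17, from 71000001 to 72000000, 36 and 3 of 328 regions differed. Peaks numbered 159 and 263 with the label shKDM4B-814 and 60 and 112 with the label shKDM4B-813, and the libraries labelled shCtrl had 290 and 250.

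Regions only with shKDM4B-813 were spread more thinly. The windows with the most of them held 11 to 13. On chromosome 9 the window from 102000001 to 103000000 held 12 and none of the other direction among 61 regions, with 41 and 46 peaks under the label shKDM4B-813 and 30 and 36 under the label shKDM4B-814. It was not crowded in RH30, where the other lists held 25 to 40 peaks and the LHCN lists 37 to 41. It was the exception among the 5 windows, since in the other 4 the mean over all 10 RH30 lists was 2.19 to 3.14 times that of LHCN. On chromosome 2 the windows from 84000001 and from 85000001 held 13 each among 116 and 231 regions. Another member of the same direction lay within 10 kb of 9.27% of regions only with shKDM4B-813 and of 20.7% of those only with shKDM4B-814. A region shared by all 4 lists lay within 10 kb of 38.0% and 55.6%.

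**Figure D5:**
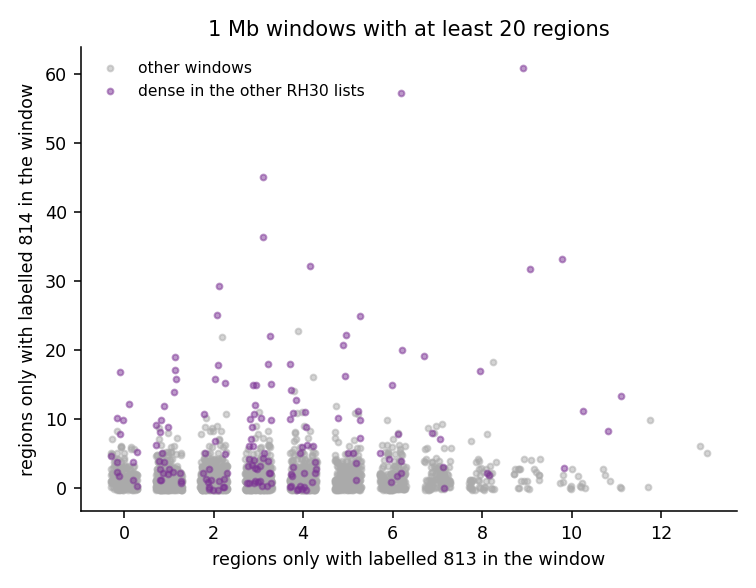
Each point is a 1 Mb window with at least 20 regions, spread slightly at random to part overlapping points; axes count the regions only with the label shKDM4B-813 (x) and only with the label shKDM4B-814 (y). Purple marks the windows dense in the other RH30 lists, which include the highest points on the y axis, up to 61.

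At the 52009 regions with a peak in all 4 lists, strength was tested on ranks. The normal score of each peak's within-list rank was compared between labels with limma, with Benjamini-Hochberg adjustment over all 52009. No region passed an adjusted p of 0.05 in either direction (percent called 0), while 4410 and 4554 regions had an unadjusted p under 0.05 in favour of the labels shKDM4B-813 and shKDM4B-814, or 17.2% together. Ranking within lists of equal length holds that split near even. With the lists as deposited the counts were 11832 and 1181, again with 0 calls in limma, and 73.2% of regions scored higher with shKDM4B-813. There the score depends on list length, and the same rank scores higher in the longer shKDM4B-813-labelled lists. The uneven split cannot be read as a difference in strength. A miss does not show equal strength, since 2 libraries per label give few degrees of freedom.

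The regions with the smallest p are given as values. On chromosome 11, from 75021542 to 75022259, the within-list percentile was 95.9 and 95.4 with the label shKDM4B-814 and 30.5 and 21.3 with the label shKDM4B-813. The difference was -2.36 ± 0.20 (SE) on the normal score scale (limma, adjusted p = 0.176). On chromosome 19, from 28236230 to 28236792, the percentiles were 82.1 and 85.2 against 11.1 and 7.56 (limma, adjusted p = 0.176).

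In the other direction, a region on chromosome 5 from 23631208 to 23632147 stood at 94.2 and 96.3 with the label shKDM4B-813 and at 18.7 and 32.4 with the label shKDM4B-814 (limma, adjusted p = 0.176). A region on chromosome 11 from 45629504 to 45630042 stood at 79.3 and 75.1 against 2.92 and 6.47 (limma, adjusted p = 0.176). All 4 regions were picked for their small p, so their separation is a description.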

How the data were processed

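The files are narrowPeak lists, 1 per library, made by the authors with MACS2 2.1.1 after BWA 0.7.12-r1039, Picard 1.65 and SAMtools 1.3.1 on hg19, per the submitters' processing notes. Caller settings and read filters: not given in the sources used here. Each peak has a deposited score (not used), a fold value (ratio over background, used to describe peaks within a list), and deposited −log10 p and −log10 q; the latter ranked peaks. Fold and −log10 q gave the same order in all 14 lists.

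Lists were trimmed by −log10 q, then fold, then position, and merged. Coordinates count from 1. The members and lists were chosen with earlier results of these data known. Named features come from the 10 regions per direction with the highest lower-of-2 percentile, the 5 windows of 1 Mb with the most members, the 3 chromosomes at either end, and the 5 shared regions per direction with the smallest p; some of the regions and windows are printed. Code was tested on simulated data. limma 3.58.1 (R 4.3.3) and Python 3.11.15 were used. No hg19 annotation was used, so planned gene lists were not run and no sequence is shown. Alternatives were the lists as deposited, other limits on strength, overlap, region shape and windows, replicate blocks and leaving out each library.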

Additional observations from a re-analysis of the deposited data

How the results depend on the processing

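With the lists as deposited, 19022 regions were only with shKDM4B-813 and 1999 only with shKDM4B-814; the mean share of the former with a peak over 6 RH30 libraries was 31.7%, and LHCN minus RH30 for the latter was -13.0 points (exact permutation p = 0.0810). At a −log10 q of 10 or more, 1022 regions were only with shKDM4B-814, and LHCN minus RH30 was 5.95 points for them. With the 50000 strongest peaks the counts were 4177 and 3245, the mean RH30 share of the latter was 52.6%, and LHCN minus RH30 for the former was 10.98 points (exact permutation p = 0.114). For strong against absent peaks the counts were 1131 and 133, the RH30 shares 27.8% and 58.3%, and LHCN minus RH30 for the latter 0.376 points (exact permutation p = 0.976). When a peak had to cover 50% of the region, the RH30 share of the former was 25.8%. In these cases the cause was not tested. Where the deposited lists were used, their unequal length makes absence easier to meet under the label shKDM4B-814.

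Leaving out 1 library each, which loosens the rule, gave 12767 to 21019 regions only with shKDM4B-813, 8429 to 21607 only with shKDM4B-814, a Jaccard gap of 0.0256 to 0.122, RH30 shares of 18.2% to 31.0% and of 30.1% to 56.6%, and LHCN minus RH30 of 2.41 to 16.3 points and of -31.1 to -14.6 points. Over the 12 alternatives that could change these shares, the libraries labelled shCtrl held a larger share of the regions only with shKDM4B-814 in 12. For DMSO this was so in 10, the exceptions being without either shKDM4B-814-labelled library. In LHCN the share was larger for the regions only with shKDM4B-813 in 10. No setting gave a call in the limma test. Requiring the same difference within both same-numbered pairs, as a replicate block, gives the same 8748 and 4887 regions by construction. With the replicate block limma called 0 regions in either direction. The numbers share no stated batch, and deviations of same-numbered libraries correlated at 0.066. Sequencing depth limits what can be called absent and is unknown.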
